A study of Mus musculus with 8 samples.

Results

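The 10 genes Nr3c1, Hsd11b1, Fkbp5, Tsc22d3, Zbtb16, Klf9, Klf15, Sgk1, Mt1 and Mt2 encode the glucocorticoid receptor, an enzyme that makes its ligand, and 8 genes known to be switched on by glucocorticoids. They were taken by name from 47643 named gene entries in an expression table of cultured mouse cells, and all 10 were among the 15327 genes with enough reads to test. Every culture sequenced here held dexamethasone, a synthetic glucocorticoid. The data therefore show the levels of these genes under the hormone and how those levels differed between 2 genotypes. No culture without dexamethasone was part of the comparison, and no value here measures the response to the hormone.

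Glucocorticoids are steroid hormones that enter the cell and bind the receptor Nr3c1, which waits in the cytoplasm in a complex of Hsp90 chaperones. The bound receptor moves to the nucleus, binds response elements as a dimer and recruits coactivators, while at many inflammatory genes it lowers transcription through other factors. In bone marrow stromal cells dexamethasone is part of the usual osteogenic medium, and it is also part of the usual adipogenic cocktail. N6-methyladenosine (m6A) is a methyl mark placed on mRNA by the writer complex of Mettl3 and Mettl14, mostly at adenosines in the sequence GGAC and its relatives, and it can change the stability and translation of an mRNA.

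The cells were primary bone marrow mesenchymal stem cells (MSCs) of C57BL/6 mice, flushed from tibiae and femurs. RNA-seq was made from 2 libraries labelled wild type, called WT here and described by the study as Mettl3 fl/fl littermates, and from 2 libraries of Prx1-Cre;Mettl3 fl/fl mice, called cKO. Prx1-Cre is active in limb mesenchyme, so cells of other origin that grow in the same dish keep an intact Mettl3. m6A was mapped by MeRIP-seq, sequencing of fragments bound by an m6A antibody, in WT cells only (2 immunoprecipitates and 2 inputs). All 8 samples were kept for 2 days in medium with 100 nM dexamethasone, 50 μg/ml ascorbic acid and 5 mM β-glycerophosphate. The labels do not say whether libraries of a group came from separate mice or cultures, and the p-values measure only the spread between these libraries.

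The 4 RNA-seq libraries held 23978099 to 34106693 estimated counts. The cKO libraries lay much closer to each other than the WT libraries did, with a biological coefficient of variation of 1.89% against 12.2%. Mettl3, the targeted gene, read 17.6 and 16.9 CPM (counts per 1000000 mapped counts) in WT and 17.5 and 16.3 CPM in cKO, and these ranges overlapped. The allele removes part of the gene, and a count over the whole gene also covers exons outside that part, so the genotype of the 2 libraries labelled cKO rests on their labels. Stromal markers summed to 3458–3574 CPM in WT and 2440–2450 CPM in cKO, and macrophage markers to 18860–23277 and 24852–24996 CPM, led by Lyz2 and C1qb. Of 10 stromal markers 4 were called higher (Prrx1, Pdgfra, Pdgfrb and Thy1) and 5 lower. The most abundant stromal marker, called lower, held most of the stromal sum in every library. The stromal sum therefore does not give the direction of the other stromal markers. Of 10 macrophage markers 3 were called higher. Chondrocyte markers summed to 2875–2877 CPM in WT and 66.2–68.1 CPM in cKO, with Col2a1 and Acan at the top and 5 of 6 lower. Osteoblast markers, mostly Spp1 and Sparc, summed to 11481–20813 and 8859–8874 CPM, with 8 of 10 lower. Adipocyte markers, led by Lpl and Cebpa, summed to 904–987 and 1308–1330 CPM, with 7 higher and 3 lower of 12. Neutrophil (S100a8, Camp), endothelial (Vwf, Kdr) and erythroid (Epor) markers stayed at or under 26.4 CPM in sum. Of 4 tested endothelial markers 3 were higher, their sum being 9.66–11.03 CPM in WT and 24.03–26.4 CPM in cKO. S100a8 was lower, Camp and Epor were not called, and S100a9, Mpo and Ltf were at 0. In such bulk cultures, fewer cells of a type and less RNA per cell cannot be told apart, and the part of cell composition in the differences given here was not tested.

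The 10 genes moved in both directions. Of the 10, 2 were higher in cKO (Klf9 and Klf15), 4 were lower (Sgk1, Mt1, Mt2 and Hsd11b1) and 4 did not pass the test (Nr3c1, Fkbp5, Tsc22d3 and Zbtb16). Among all genes tested, 13.7% were called higher, 16.8% lower and 30.5% in either direction, by edgeR's quasi-likelihood test at a Benjamini-Hochberg adjusted p under 0.05, hereafter the edgeR adjusted p. The median log2 fold change of the 10 was 0.14, and that of all tested genes was -0.0038. The CPM of the 2 groups did not overlap for 9 of the 10 genes, which was also so for 68.9% of all genes tested. More of the 10 genes passed with a WT library left out and fewer with a cKO library left out. The calls over all 15327 genes moved likewise. With 1 WT library left, the test takes its spread from the 2 cKO libraries alone, which were much alike.

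**Figure D1:**
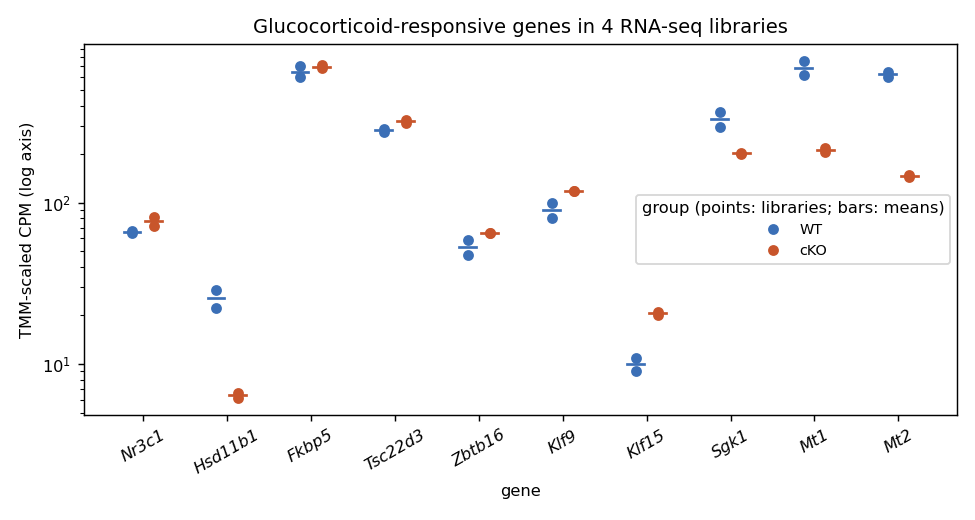
Level of each of the 10 genes (horizontal axis) in CPM scaled by TMM (log axis), with blue points for the 2 WT and orange points for the 2 cKO libraries and bars at the means. The points of Mt1, Mt2, Sgk1 and Hsd11b1 lie lower in cKO, those of Klf15 higher, and those of Fkbp5 overlap.

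**Figure D2:**
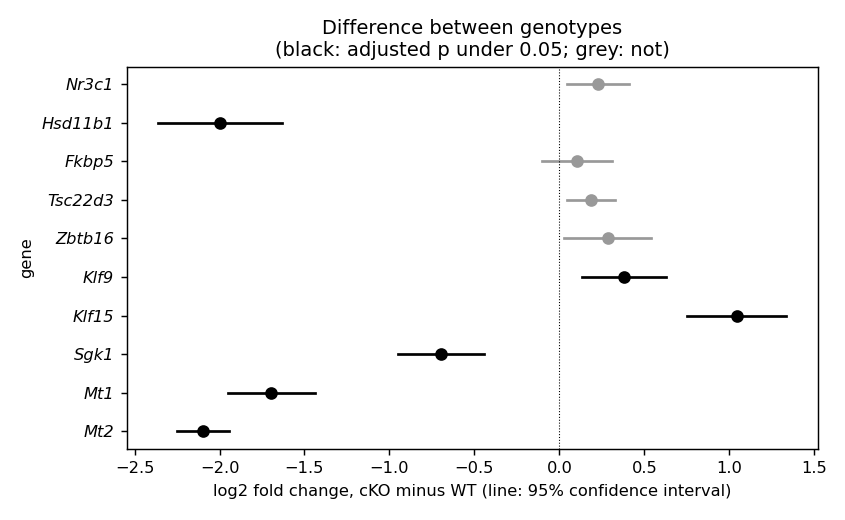
Log2 fold change of each gene, cKO minus WT, as a point with its 95% confidence interval as a line, black where the edgeR adjusted p was under 0.05 and grey where it was not. The values run from -2.10 for Mt2 to 1.04 for Klf15.

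Nr3c1 encodes the glucocorticoid receptor itself, the ligand-activated transcription factor through which dexamethasone acts. The gene lies on chromosome 18 from 39410545 to 39491301 on the minus strand (mm10). Its level was 66.3 and 64.7 CPM in WT and 81.2 and 72.1 CPM in cKO. Both cKO libraries lay above both WT libraries. The log2 fold change was 0.23 (SE 0.0761, 95% confidence interval 0.04 to 0.41, edgeR adjusted p = 0.0684), so it did not pass the test. On the per-length scale of the deposited TPM it read 17.8 and 17.01 TPM in WT and 24.3 and 22.2 TPM in cKO, and limma on log2(TPM + 0.1) gave a log2 fold change of 0.42 with an adjusted p of 0.0358. On that scale the median log2 fold change of all genes was 0.10, against -0.0038 in edgeR. The call turned on the libraries as well. The log2 fold change by edgeR was 0.24 or 0.20 without WT replicate 1 or 2, and 0.14 or 0.31 without cKO replicate 1 or 2. DESeq2 on all libraries gave an adjusted p of 0.122.

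Hsd11b1 encodes the enzyme of the endoplasmic reticulum that turns inactive keto-steroids into active glucocorticoids, so it sets the amount of natural hormone inside the cell. It lies on chromosome 1 from 193221634 to 193264075 on the minus strand. Its level was 22.3 and 28.8 CPM in WT and 6.64 and 6.15 CPM in cKO. Every WT library was far above every cKO library. The gene was 3.99-fold lower in cKO (log2 fold change -1.998, SE 0.151, interval -2.36 to -1.63, edgeR adjusted p = 0.000296), a larger size of change than in all but 4.08% of the genes tested. Lamb3 overlaps it on the other strand with 6 to 100 counts a library, and the sources used here do not state whether counting used strand.

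Fkbp5 and Tsc22d3 are textbook direct targets of the receptor. Fkbp5 encodes a co-chaperone of Hsp90 that lowers the affinity of the receptor for hormone and so acts as a brake on it. It read 700 and 599 CPM in WT and 682 and 712 CPM in cKO. The groups overlapped. The log2 fold change was 0.10 (SE 0.0851, interval -0.10 to 0.31, edgeR adjusted p = 0.410), which leaves room for a level 1.24-fold higher or 0.931 times that of WT. Its sign rested on the WT libraries, at 0.22 without WT replicate 1 and -0.0073 without WT replicate 2.

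Tsc22d3, on chromosome X from 140539528 to 140600659 (minus strand), encodes the leucine zipper protein GILZ, which mediates part of the anti-inflammatory action of glucocorticoids. It read 284 and 276 CPM in WT and 326 and 312 CPM in cKO. Both cKO libraries were slightly above both WT libraries. The log2 fold change was 0.19 (SE 0.0593, interval 0.04 to 0.33, edgeR adjusted p = 0.0576). That did not pass the test, nor did DESeq2 (adjusted p = 0.0937), whereas limma on log2(TPM + 0.1) gave an adjusted p of 0.0321 and edgeR without a filter on low counts 0.0417. The log2 fold change by edgeR was 0.21 or 0.16 without WT replicate 1 or 2, and 0.15 or 0.22 without cKO replicate 1 or 2.

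Zbtb16, Klf9 and Klf15 encode zinc finger transcription factors that glucocorticoids induce in many tissues. Zbtb16, known as PLZF, is among the genes dexamethasone raises in osteogenic cultures of stromal cells, and Klf15 is a regulator of amino acid and lipid metabolism. Klf9 is a repressor that answers to glucocorticoid and thyroid hormone. The RNAs of all 3 carried m6A peaks in their coding sequence in WT cells, and the coding part of each such peak is printed from the mm9 genome, 5′ to 3′ on the strand of the gene, with each GGAC in capitals. The printed parts of the Zbtb16 peaks are at chr9:48640959-48641115 and chr9:48640374-48640576 (minus strand, exon 2 of 7). The printed part of the Klf9 peak is at chr19:23216245-23216487 (plus strand, exon 1 of 2), and that of the Klf15 peak at chr6:90416645-90416927 (plus strand, exon 2 of 3).
Zbtb16 peak 1: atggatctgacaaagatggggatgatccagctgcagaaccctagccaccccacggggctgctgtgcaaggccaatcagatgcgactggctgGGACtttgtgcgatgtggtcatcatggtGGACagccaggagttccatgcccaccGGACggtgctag
Zbtb16 peak 2: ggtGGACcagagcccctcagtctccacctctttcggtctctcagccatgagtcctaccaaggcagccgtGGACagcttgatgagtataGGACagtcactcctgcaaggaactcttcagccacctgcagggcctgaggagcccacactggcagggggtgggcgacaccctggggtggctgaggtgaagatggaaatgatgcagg
Klf9 peak 1: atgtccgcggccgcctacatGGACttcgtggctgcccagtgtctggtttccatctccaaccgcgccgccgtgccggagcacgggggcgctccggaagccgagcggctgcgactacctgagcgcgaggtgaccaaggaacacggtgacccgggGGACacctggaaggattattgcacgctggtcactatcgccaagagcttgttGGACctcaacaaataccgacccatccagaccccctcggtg
Klf15 peak 1: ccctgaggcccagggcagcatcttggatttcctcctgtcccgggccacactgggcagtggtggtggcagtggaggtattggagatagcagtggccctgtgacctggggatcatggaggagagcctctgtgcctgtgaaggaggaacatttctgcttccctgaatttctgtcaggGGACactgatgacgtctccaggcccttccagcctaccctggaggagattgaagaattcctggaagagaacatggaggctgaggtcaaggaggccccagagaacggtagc
The printed parts of the first peaks of Zbtb16 and of Klf9 begin at the start codon because only coding bases are printed. Both peaks reach further in the 5′ direction. Of these 4 stretches, 3 hold more than 1 GGAC.

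Klf15 rose most of the 10. Its level was 9.02 and 10.97 CPM in WT and 20.1 and 21.0 CPM in cKO. The cKO libraries agreed closely with each other and lay well above WT. The difference was 2.06-fold (log2 fold change 1.04, SE 0.121, interval 0.75 to 1.34, edgeR adjusted p = 0.00164), and it passed the test in each alternative run.

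Klf9 read 100 and 80.9 CPM in WT and 119 and 117 CPM in cKO. The groups did not overlap, with the wider spread in WT. It was 1.30-fold higher (log2 fold change 0.38, SE 0.103, interval 0.13 to 0.63, edgeR adjusted p = 0.0342). Without cKO replicate 1 or cKO replicate 2 the adjusted p was 0.154 or 0.142, and with limma on log2(TPM + 0.1) it was 0.054, so the call depended on these choices. Zbtb16 lay in the same direction, at 59.0 and 47.6 CPM in WT and 65.0 and 64.8 CPM in cKO. The nearest libraries of the groups were close, and the log2 fold change of 0.28 (SE 0.105, interval 0.03 to 0.54, edgeR adjusted p = 0.0892) did not pass.

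Sgk1 encodes a serine/threonine kinase that glucocorticoids and mineralocorticoids induce and that acts on ion channels and cell survival. It lies on chromosome 10 from 21882184 to 21999903 on the plus strand. Its level was 293 and 365 CPM in WT and 204 and 201 CPM in cKO. Both cKO libraries were below both WT libraries, which differed by more than the cKO libraries did. It was 1.62-fold lower in cKO (log2 fold change -0.70, SE 0.105, interval -0.95 to -0.44, edgeR adjusted p = 0.00455). The adjusted p was 0.074 with limma on log2(TPM + 1) without a filter on low values.

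Promoter sequences of RefSeq (GRCm38.p6) were read for 8 of the 10 genes, all but Nr3c1 and Zbtb16, in 15 windows from 250 bases before to 50 bases after a transcript start, including 6 for Sgk1 and 3 for Tsc22d3. The palindromic glucocorticoid response element was searched in the letters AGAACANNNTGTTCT on both strands. It was found in 1 of the 15 windows, that of the Sgk1 transcript starting at 21993890, and in 3 of all 32851 promoters (0.00913%). This search takes the exact palindrome only, and its 6-base arm AGAACA alone, which the full element holds on each strand, was in 19.0% of promoters. The 250 bases before that start, chr10:21993640-21993889 on the plus strand, are shown for this match, which is in capitals and spans 21993701 to 21993715.
Sgk1 promoter: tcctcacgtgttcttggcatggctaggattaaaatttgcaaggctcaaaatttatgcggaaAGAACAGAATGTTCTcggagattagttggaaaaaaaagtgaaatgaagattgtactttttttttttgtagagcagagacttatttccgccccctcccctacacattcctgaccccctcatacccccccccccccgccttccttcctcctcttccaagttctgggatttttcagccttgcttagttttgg
Matching letters describe this window and say nothing of binding in these cells.

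Mt1 and Mt2 encode metallothioneins, small cysteine-rich proteins that bind zinc and copper. Both are induced by glucocorticoids as well as by metals and oxidants, the latter through the factor Mtf1. They lie side by side on chromosome 8, Mt2 from 94172618 to 94173567 and Mt1 from 94179089 to 94180325, both on the plus strand with 5521 bases between them. Their 186-base coding sequences were identical at 148 positions (79.6%), but no stretch longer than 20 bases was shared, so a longer read differs between the genes at 1 base or more.

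Mt2 fell most of the 10. Its level was 643 and 605 CPM in WT and 144 and 148 CPM in cKO, a clean separation. It was 4.28-fold lower (log2 fold change -2.10, SE 0.0641, interval -2.25 to -1.94, edgeR adjusted p = 1.08e-05), and only 3.76% of all genes tested changed by more in either direction. Mt1 read 757 and 615 CPM in WT and 218 and 206 CPM in cKO. The WT libraries differed from each other, yet both were far above cKO. It was 3.24-fold lower (log2 fold change -1.69, SE 0.106, interval -1.95 to -1.44, edgeR adjusted p = 0.000139). The ratio of Mt1 to Mt2 in TPM was 1.25 and 1.07 in WT and 1.60 and 1.48 in cKO. Mt1 was thus the more abundant of the pair in every library, and the ratio was higher in both cKO libraries. Together the pair held 6821 and 5308 TPM in WT and 1807 and 1754 TPM in cKO.

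The promoters of Mt1 and Mt2 were searched for the core of the metal response element, TGCACNC or TGCGCNC, on both strands. In 300 bases Mt2 held 4 and Mt1 held 3 of these cores, whose 2 forms cannot match the same bases of a strand. Of all promoters, 25.7% held at least 1, 1.97% at least 3 and 0.517% at least 4. No full glucocorticoid response element and no AGAACA was found in either window. The 250 bases before each annotated RefSeq start are shown to compare the pair, chr8:94172368-94172617 for Mt2 and chr8:94178839-94179088 for Mt1. They are followed by the first 30 bases from the annotated start of Mt1, chr8:94179089-94179118, which hold a further 2 cores. All are on the plus strand with the cores in capitals.
Mt2 promoter: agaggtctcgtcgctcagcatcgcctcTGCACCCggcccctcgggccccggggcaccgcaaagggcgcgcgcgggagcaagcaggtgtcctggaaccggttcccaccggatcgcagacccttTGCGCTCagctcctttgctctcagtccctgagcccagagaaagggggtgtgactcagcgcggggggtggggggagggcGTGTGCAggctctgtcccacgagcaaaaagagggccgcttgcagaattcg
Mt1 promoter: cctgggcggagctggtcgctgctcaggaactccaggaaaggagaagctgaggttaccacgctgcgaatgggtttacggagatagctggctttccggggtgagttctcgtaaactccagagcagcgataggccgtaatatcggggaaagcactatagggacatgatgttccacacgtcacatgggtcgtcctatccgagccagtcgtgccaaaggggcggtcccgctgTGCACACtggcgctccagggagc
Mt1 start: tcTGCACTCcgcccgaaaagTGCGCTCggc
Relative to these annotated starts, the cores of Mt2 were spread over the window, and those of Mt1 lay near or past the start. Neither window held TATAAA, and where transcription of the pair began in these cells was not tested.

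Levels were compared between genes only per length, in TPM. In WT the metallothioneins stood at the top, Mt1 at 2748–3789 TPM and Mt2 at 2560–3032 TPM, and these ranges overlapped. Fkbp5 (233–277 TPM), Sgk1 (214–262 TPM) and Tsc22d3 (206–218 TPM) followed, with overlapping ranges between neighbours. Klf9 (34.3–43.4 TPM), Hsd11b1 (27.0–33.1 TPM), Nr3c1 (17.01–17.8 TPM), Zbtb16 (12.5–15.8 TPM) and Klf15 (5.57–6.72 TPM) came next, each apart from its neighbour. In cKO, Mt1, Mt2 and Fkbp5 kept the first places, Tsc22d3 (254–265 TPM) stood above Sgk1 (156–164 TPM), and Hsd11b1 at 7.58–7.93 TPM was last, below Klf15 at 13.1–13.8 TPM. With CPM divided by gene length in place of TPM, Hsd11b1 and Zbtb16 exchanged places in the WT order, so that Zbtb16 stood above Nr3c1 and Hsd11b1 below it, and the other 8 genes kept theirs.

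Other genes of the pathway were read from lists of textbook members, chosen with earlier results of these data known. Of 24 further glucocorticoid-induced genes 22 were tested. Of these, 5 were higher (22.7%) and 13 lower (59.1%) in cKO, with a median log2 fold change of -0.44. Among all genes tested, as given above, 13.7% were called higher, 16.8% lower and 30.5% in either direction. The most abundant were Anxa1, an anti-inflammatory phospholipid-binding protein, and Glul, glutamine synthetase, and both were higher. Anxa1 read 695 and 680 CPM in WT and 1081 and 1082 CPM in cKO (log2 fold change 0.65, edgeR adjusted p = 0.000461), and Glul 468 and 493 against 567 and 568 CPM (0.24, adjusted p = 0.0243). The largest changes were falls. Lcn2, an iron-siderophore carrier, went from 40.2 and 39.4 to 1.77 and 1.91 CPM (log2 fold change -4.42). Rgs2, which dampens G protein signalling, went from 201 and 194 to 47.1 and 49.0 CPM (-2.04), and Dusp1, a phosphatase of MAP kinases, from 254 and 314 to 89.6 and 95.2 CPM (-1.62). The induced genes therefore held changes in both directions, as the 10 genes did.

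Of 20 genes that glucocorticoids repress, 16 were tested. By edgeR 13 were lower, 0 higher and 3 not called, with a median log2 fold change of -1.72. The lower calls made up 81.25% of the list, against 16.8% of all genes tested. DESeq2 and limma on TPM also called 0 higher, while 1 was called higher by edgeR without a filter on low counts, with a replicate block, or without either WT library. In the edgeR fit with all 4 libraries Ccnd1 was the only tested gene of the list above 0 (0.40, unadjusted p = 0.0697). The most abundant were Col1a1, a chain of type I collagen, and Mmp13, collagenase. Col1a1 and Bglap, which was lower (log2 fold change -1.28), are also among the osteoblast markers. Col1a1 read 1896 and 1921 CPM in WT and 1225 and 1259 CPM in cKO (log2 fold change -0.62, edgeR adjusted p = 0.000584). Mmp13 read 620 and 660 CPM in WT and 23.7 and 25.4 CPM in cKO (-4.70). The next largest falls were those of Mmp3, stromelysin, at -4.29, and Ptgs2, the inducible cyclooxygenase, at -4.25 on the log2 scale, the latter from 109 and 149 to 6.60 and 6.90 CPM. Lower calls thus prevailed among both the genes glucocorticoids induce and the genes they repress.

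**Figure D3:**
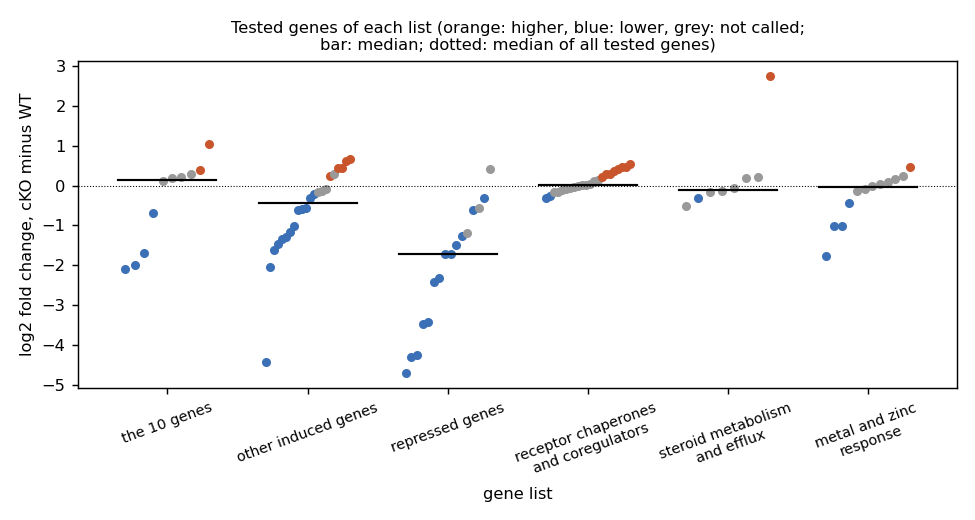
Log2 fold change, cKO minus WT, of the tested genes of each list (horizontal axis), sorted within a list, with orange for higher, blue for lower and grey for not called, a bar at the list's median and a dotted line at the median of all tested genes. The induced list spreads on both sides of 0 with 5 higher and 13 lower, and the repressed list holds 13 lower and no higher call.

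The chaperones and coregulators of the receptor were all tested (22 of 22), and 8 were higher and 2 lower, with a median log2 fold change of 0.02. These were 36.4% and 9.09% of the list, against 13.7% and 16.8% of all genes tested. The most abundant, the chaperones Hspa8 and Hsp90ab1, did not pass the test, at log2 fold changes of 0.03 and -0.08. All 8 higher genes were coregulators, among them the coactivators Ncoa1, Ncoa2 and Ncoa3. The largest change was that of Nrip1, a corepressor, at 0.55, followed by Ep300, an acetyltransferase, at 0.47. The 2 lower genes were the chaperones Hsp90aa1 (-0.27) and Stip1 (-0.31). The 10 calls became 18 without WT replicate 1, 3 without cKO replicate 1 and 1 without cKO replicate 2.

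Of 9 genes of steroid metabolism and efflux 8 were tested, with 1 higher, 1 lower and a median log2 fold change of -0.10. The calls were 12.5% in each direction, under the 13.7% and 16.8% of all genes tested. Akr1c14, a hydroxysteroid dehydrogenase, rose from 3.73 and 3.33 CPM in WT to 23.4 and 24.3 CPM in cKO (log2 fold change 2.75, edgeR adjusted p = 2.62e-05). H6pd, which makes the NADPH that Hsd11b1 uses, fell by 0.31 on the log2 scale, from 230 and 250 to 195 and 192 CPM (edgeR adjusted p = 0.015). The efflux pump Abcc1, the next most abundant, did not pass at 0.19. Hsd11b2, the enzyme that inactivates the hormone, was at 4.79 and 8.70 CPM in WT and 6.27 and 6.49 CPM in cKO, and the groups overlapped. The 2 calls became 6 and 5 without WT replicates 1 and 2, and 1 without either cKO library.

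Genes of the metal and zinc response were read because Mt1 and Mt2 belong to it as well. Of 14 genes 12 were tested, with 1 higher, 4 lower and a median log2 fold change of -0.04. These calls were 8.33% and 33.3% of the tested genes of the list, against 13.7% and 16.8% of all genes tested. Fth1, the ferritin heavy chain, did not pass at 0.08, and Hmox1, haem oxygenase, was lower, at 824 and 772 CPM in WT and 591 and 594 CPM in cKO (-0.43, edgeR adjusted p = 0.00346). The largest falls were those of the zinc importers Slc39a14, from 148 and 167 to 44.7 and 47.3 CPM (-1.78), and Slc39a8 (-1.03), and of Gclc, an enzyme of glutathione synthesis (-1.01). Mtf1, the factor that reads zinc, and Slc30a1, the zinc exporter it induces, did not pass, at 0.25 and -0.13. The 5 calls became 8 without either WT library and 3 without either cKO library.

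Relatives of the 10 genes by sequence were read as well. Of 14 paralogs 10 were tested, with 2 higher, 1 lower and a median log2 fold change of -0.02. In either direction these 3 calls lay near the 30.5% of all genes tested. Tsc22d1 read 316 and 305 CPM in WT and 151 and 149 CPM in cKO (-1.05, edgeR adjusted p = 8.83e-05), the opposite direction to Tsc22d2 (0.38) and Tsc22d4 (0.25). Klf13 read 238 and 234 CPM in WT and 236 and 239 CPM in cKO. The mineralocorticoid receptor Nr3c2, which also binds natural glucocorticoids, stayed under 2 CPM in every library. Mt3, Sgk3 and Fkbp4 did not pass the test, at log2 fold changes of -0.0090, -0.19 and -0.03. The 3 calls became 5 without either WT library and 1 without either cKO library.

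m6A was read from the deposited list of 10160 peaks of the WT cells, 1 list for the 2 immunoprecipitates and 2 inputs, which carries no replicate error. Of the 10 genes, 5 had at least 1 peak with its summit inside the gene (Nr3c1, Zbtb16, Klf9, Klf15 and Mt2), with 9 peaks in all. Fkbp5, Tsc22d3, Sgk1, Mt1 and Hsd11b1 had none. Among the 14118 tested genes found in the mm9 annotation 42.0% had a peak, and of the 8347 with a mean CPM at least that of the lowest of the 10, 52.1% had one. The share of 5 of 10 lay close to that. Across 10 equal bins of RNA level the share rose from 11.5% in the lowest to 56.2% in bin 9 and was 54.7% in the highest, in which Fkbp5, Mt1, Tsc22d3 and Sgk1 had no peak and Mt2 had one. GGAC was present in the longest coding transcript of each of these 5 genes without a peak, 22 times in Fkbp5, 14 in Sgk1, 6 in Mt1 and 4 each in Tsc22d3 and Hsd11b1.

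**Figure D4:**
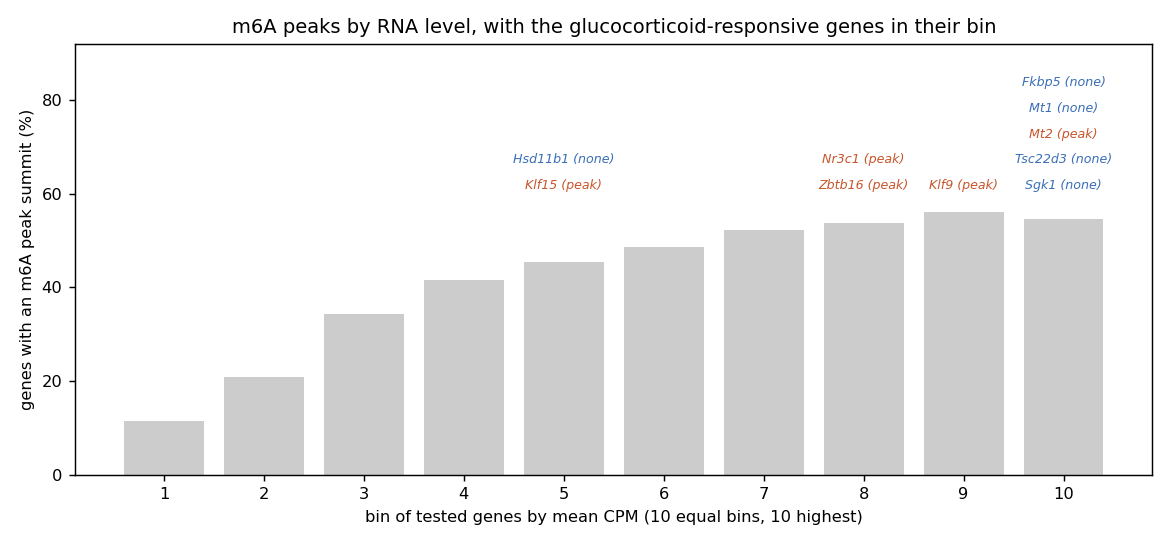
Share of genes with an m6A peak summit (vertical axis, %) in each of 10 equal bins of the tested genes ranked by mean CPM (horizontal axis), with the names of the 10 genes above their bin, orange with a peak and blue without. The share rises from 11.5% in bin 1 to 56.2% in bin 9 and is 54.7% in bin 10, and 5 of the 10 genes stand in the highest bin.

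The strongest peak of the 10 genes by q-value was in the receptor mRNA. Nr3c1 had 2 peaks in its first coding exon, the first with a pileup of 100 fragments, a fold enrichment of 5.43 over local background and a −log10 q of 37.0, the second with 64 fragments, 3.12-fold and 11.8. The list's medians were 60 fragments, 4.03-fold and 14.2. Klf9 had 3 peaks, that in the coding sequence with 76 fragments, 5.87-fold and a −log10 q of 30.6, and 2 in the 3′UTR. Of these, the first lay 15 nt after the last coding base (3.23-fold, −log10 q 16.5) and the second 756 nt after it (5.36-fold, −log10 q 9.78). Klf15 had the highest fold enrichment of the 9, 7.18, from a pileup of only 22 fragments. The Zbtb16 peaks were weak, with pileups of 14 and 20 fragments and −log10 q-values of 4.95 and 8.19, and Zbtb16 had none left at a −log10 q of at least 10, where 4 of the 10 genes kept a peak.

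The 6 coding summits of Nr3c1, Zbtb16, Klf9 and Klf15 all lay in the early part of the coding sequence. Counted from the first coding base they stood at 13.8% and 33.6% of its length in Nr3c1, 6.69% and 32.5% in Zbtb16, 15.9% in Klf9 and 32.5% in Klf15, a median of 24.2%. The median of all 5751 coding summits of the list was 64.1%. These are positions of 6 peaks on 4 mRNAs, given as a description with no test, and the printed coding sequences of Zbtb16, Klf9 and Klf15 are the same peaks. In the Klf9 3′UTR, the GGAC nearest the first summit is shown in its 30-base window at chr19:23239431-23239460 (plus strand, mm9), with GGAC in capitals.
Klf9 3′UTR: tgggtccccggaaGGACagagctcccagga
All of the 4 genes with coding peaks had log2 fold changes above 0, from 0.23 to 1.04, of which those of Klf9 and Klf15 passed the test. Mt2, whose peak had its summit in an intron, lay below 0, at -2.10. Among the genes without a peak, Fkbp5 and Tsc22d3 also lay above 0, and Sgk1, Mt1 and Hsd11b1 lay below. No relation between peaks and changes was tested, and the share above 0 among all genes with a peak is not given here.

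**Figure D5:**
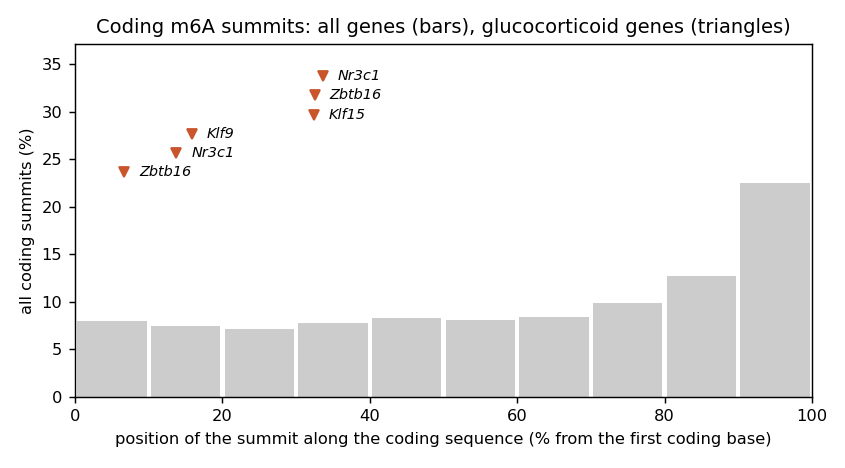
Share of all coding m6A summits (grey bars, %) in each of 10 equal stretches of the coding sequence, from the first coding base (0%) to the last (100%), with triangles at the 6 coding summits of Nr3c1, Zbtb16, Klf9 and Klf15, whose height has no meaning. The triangles lie between 6.69% and 33.6%, while the tallest bar is at the end of the coding sequence.

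The peak of Mt2 was the only one of the 9 with its summit outside an exon. The summit lay in an intron, 121 nt from the nearest exon, and 37 of its 203 bases were exonic. It had 46 fragments, a 3.58-fold enrichment and a −log10 q of 10.4, and the Mt2 transcript held 1 GGAC in all. Mt1, its neighbour with 6 GGAC, had no peak. The 2 counts come from unlike GENCODE models, of 631 bases with 396 coding bases for Mt1 and 556 bases with 183 coding bases for Mt2. The Mt1 model is longer than the 186-base coding sequence compared above. Of all tested genes found in the mm9 annotation 42.0% had a peak. Since that share rose with RNA level and the other lists were not matched for level, their shares are a description only. In the other lists, 18 of 22 tested induced genes (81.8%), 4 of 16 repressed genes (25%) and 15 of 22 chaperones and coregulators (68.2%) had one. So did 7 of 12 metal response genes (58.3%), 4 of 10 paralogs (40%) and 3 of 8 genes of steroid metabolism (37.5%). All 8 coregulators called higher had a peak, as did the coregulators Smarca4 and Med1, which were not called. Of the lower chaperones, Hsp90aa1 had a peak and Stip1 had none. Among the induced genes named above, Rgs2 and Dusp1 (lower) and Glul (higher) had a peak. Lcn2 (lower) and Anxa1 (higher) had none.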

How the data were processed

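The members and gene lists were chosen with earlier results of these data known. The RNA-seq reads passed quality control in FastQC and FASTX, were aligned by the authors with HISAT2 (2.0.4 per the processing notes) and were tested with Ballgown; the counting tool and its strand setting are not given in the sources used here. Estimated counts, not normalized, were deposited for each gene, along with a column headed FPKM that sums to 1000000 in each library, so the deposited values are TPM. Both were on mm10. The study called genes by a p-value and a 2-fold change, without saying whether p was adjusted; an unadjusted p with a 2-fold change was used here as an alternative. For MeRIP-seq, the processing notes name TopHat, MACS2 and mm9. The deposited peak list gives the pileup signal at the summit, fold enrichment as a ratio over local background, and −log10 of the q-value, known by its place in the MACS2 layout since its header cell is damaged. Whether samples were pooled is not given in the sources used here, and the depth behind the peaks is unknown.

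The 89 entries without a gene name (0.11% to 0.125% of counts) were left out of sizes and tests. After rounding, the filter of filterByExpr and TMM scaling, genotypes were compared by the two-sided quasi-likelihood test of edgeR 4.0.16 in R 4.3.3 (genotype as the only term), with Benjamini-Hochberg adjustment across 15327 genes. The SE of a log2 fold change was derived from the F statistic of its test. The scripts were tested on simulated data. Replicate libraries differed by more than sampling noise (chi-square over degrees of freedom 32.6 in WT, 1.82 in cKO). Gene names in a list were chosen as the 2 with the highest mean CPM and the 3 with the largest called change, and of markers the 2 highest; the others named were chosen after their values were seen. A gene that this rule names is not reported here. Peaks were placed on GENCODE vM1 by their summit. Alternatives were median-of-ratios size factors, no filter, DESeq2 1.42.0, limma 3.58.1 on log2(TPM + 0.1) and log2(TPM + 1), a replicate block, each library left out in turn, stricter peaks and, added after seeing the data, the cKO libraries summed to 1 sample.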

Additional observations from a re-analysis of the deposited data

How the results depend on the processing

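Klf15, Mt1, Mt2 and Hsd11b1 kept their call and direction in each alternative run, with log2 fold changes of 0.91 to 1.19, -1.84 to -1.53, -2.14 to -1.99 and -2.17 to -1.81. Fkbp5 lay at -0.0073 to 0.22 with a library left out. Of the 10 genes, 6 were called, 5 to 10 with a library left out, 9 by edgeR with no filter on low counts, and 4 with limma on log2(TPM + 1) without a filter. Over all genes the 4677 calls became 1889 to 8719 with a library left out, 2942 with limma on log2(TPM + 0.1), 3013 on log2(TPM + 1), 1658 on the latter without a filter on low values, and 1611 (508 higher, 1103 lower) by an unadjusted p under 0.05 with a 2-fold change. Of the called genes 44.9% were higher, and 57.2% with limma on log2(TPM + 0.1). A fit with a lone library assumes that it varies like the other group. With a lone WT library that group is the 2 cKO libraries, which were much alike, so such p-values do not measure the spread of WT.

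In the order limma on log2(TPM + 0.1), on log2(TPM + 1) and on the latter without a filter, the 10 calls among chaperones and coregulators became 6, 6 and 3. The 2 calls of steroid metabolism became 4 and 4 in the first and second of these, and in the last of them the 18 calls among further induced genes became 10 and the 5 of the metal response 3. With a library left out, chaperones and coregulators had 1 to 18 calls, steroid metabolism 1 to 6, the metal response 3 to 8 and paralogs 1 to 5. With the cKO libraries summed, the counts were 3, 1, 3 and 1 in the same order, and 1981 over all genes. The call of Klf9 was then lost (adjusted p = 0.143).

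Replicate numbers gave no sign of pairing (r of the deviations 0.0264, across 15327 genes with 2 pairs). The cKO libraries differed little from each other (biological coefficient of variation 1.89%), so this check could not exclude pairing. With the replicate number as a block, 2253 genes were higher and 2628 lower, and 7 of the 10 genes were called, Zbtb16 being added (adjusted p = 0.0365). The cause of these shifts was not tested. With 2 libraries a group, changes smaller than the confidence intervals given were not detectable.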
